A study of Sus scrofa with 12 samples.

Results

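RNA levels of 7 genes of cholesterol synthesis and lipoprotein uptake were followed in pig fat cells and pig ovarian granulosa cells, each before and after dedifferentiation in culture. The genes were the synthesis enzymes HMGCS1, FDPS, FDFT1 and SQLE, the sterol-sensing regulator INSIG1, and the lipoprotein receptors LRP8 and SCARB1. They were found by their symbol in the platform annotation, counting only probe sets with 1 symbol, and all 7 were present among 6765 genes so annotated. On the Affymetrix array used, the probes of a probe set together give 1 level for a transcript, and 23999 probe sets were tested. INSIG1 had 2 probe sets and the others had 1 each. For INSIG1 the probe set with the highest mean over the 12 arrays was used.

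The arrays formed 4 groups of 3. DFAT are mature adipocytes that had dedifferentiated in ceiling culture, where buoyant adipocytes settle on the top wall of a medium-filled flask, and had then grown to semiconfluence. MA are the mature adipocytes of pig fat tissue from which DFAT arise. DFOG are granulosa cells that had dedifferentiated in culture and grown to semiconfluence. GC are granulosa cells from ovarian follicles. The labels name no genetic change or drug in any group, give no animal, breed, age, follicle stage or culture time and number biological replicates without saying whether these came from separate animals or cultures. The p-values therefore measure only the spread among these arrays, which may be technical. Both dedifferentiated groups were cultured and both mature groups were isolated from tissue, so dedifferentiation and growth in culture cannot be told apart.

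Cells make cholesterol from acetyl-CoA through the mevalonate pathway, and take it up in lipoproteins through surface receptors. When membrane sterol is low, SCAP carries the transcription factor SREBP2, encoded by SREBF2, out of the endoplasmic reticulum, and genes of cholesterol synthesis and uptake are transcribed. When sterol is high, INSIG proteins hold SCAP back. Adipocytes store free cholesterol in and around the lipid droplet. Granulosa cells convert cholesterol to progesterone after ovulation and obtain much of it from lipoproteins.

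Values are log2 expression levels, so that a difference of 1 is a doubling of signal, and they hold no detection calls. DFOG arrays 2 and 3 were nearly identical. Their values differed with an SD of 0.07 over probe sets, against 0.31 to 0.62 in the 11 other pairs of arrays of a group. They were averaged and counted as 1 sample, which leaves n = 2 for DFOG and n = 3 for each other group. The mean log2 level of 8 measured adipocyte markers was 6.57 to 7.61 in DFAT arrays and 11.72 to 11.95 in MA arrays, and all 8 fell. Of 11 granulosa markers 8 fell, with a mean of 6.11 to 6.22 in DFOG arrays and 9.52 to 9.99 in GC arrays. The markers FOXL2, at 5.39 to 5.92, and CYP19A1, at 4.69 to 5.25, were low on all arrays, GC included. INSL3, a theca cell product, lay at 8.06 to 9.59 in GC arrays and at 5.68 to 6.21 in the others. Of the other theca markers, CYP17A1 lay at 4.67 to 5.41 and STAR at 4.10 to 5.39 on all arrays, and TCF21 at 6.88 to 7.54 in DFAT, 3.55 to 4.12 in MA, 4.88 to 5.17 in DFOG and 3.70 to 4.67 in GC arrays. The mean of 9 macrophage markers was 4.68 to 4.92 in DFAT arrays and 5.97 to 6.81 in MA arrays, and 6 of the 9 fell in DFAT. Of 9 endothelial markers 4 fell and 1 rose in DFAT, with means of 5.28 to 5.46 in DFAT arrays and 5.55 to 6.13 in MA arrays. All 5 stromal markers rose in both cultured groups, with means of 11.66 to 12.04 in DFAT, 7.63 to 8.99 in MA, 10.08 to 10.36 in DFOG and 4.86 to 5.37 in GC. The 3′ minus 5′ log2 signal of actin, a sign of RNA integrity, was 0.33 to 0.97 in DFAT, 1.50 to 2.47 in MA, 0.15 to 0.64 in DFOG and 0.72 to 1.76 in GC. The part of these cell markers and of RNA integrity in the results below was not tested, beyond the fit with the actin difference as a covariate. In such bulk samples, fewer cells of a type and less RNA per cell cannot be told apart.

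HMGCS1 encodes the cytosolic synthase that makes HMG-CoA, an early intermediate of the pathway. It had log2 levels of 9.26, 9.36 and 8.79 in the DFAT arrays, 7.99, 8.19 and 8.35 in the MA arrays, 7.98, 8.54 and 8.53 in the DFOG arrays, and 8.74, 9.58 and 8.74 in the GC arrays. DFAT and GC overlapped at the upper end, and DFOG and MA overlapped below them. FDPS makes farnesyl pyrophosphate, the branch point of the pathway toward sterols and prenylated proteins. The FDPS log2 levels were 11.01, 10.70 and 10.54 in DFAT, 9.08, 8.80 and 9.03 in MA, 9.49, 9.41 and 9.39 in DFOG, and 8.82, 9.18 and 8.41 in GC. DFAT stood highest and DFOG next, each apart from the others, while MA and GC overlapped.

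FDFT1, squalene synthase, catalyses the first step committed to sterols. Its log2 level was 9.36, 9.56 and 9.46 in DFAT, 9.89, 10.18 and 10.38 in MA, 8.65, 9.01 and 8.99 in DFOG, and 9.72, 10.00 and 9.64 in GC. MA and GC overlapped and were both above DFAT, which was in turn above DFOG. SQLE, squalene epoxidase, is a rate-limiting enzyme of the pathway. Levels of SQLE on the log2 scale were 9.71, 10.28 and 9.40 in DFAT, 6.25, 6.08 and 6.54 in MA, 8.26, 8.09 and 8.09 in DFOG, and 8.08, 7.99 and 7.27 in GC. DFAT was highest and MA lowest, each well apart from the rest, and DFOG and GC all but met.

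INSIG1 encodes the endoplasmic reticulum protein that retains SCAP and is itself an SREBP target. INSIG1 had log2 levels of 10.11, 10.86 and 10.75 in DFAT, 10.92, 10.77 and 10.90 in MA, 9.07, 9.78 and 9.76 in DFOG, and 9.35, 9.22 and 7.80 in GC. The fat-derived groups overlapped each other, as did the granulosa-derived groups below them. GC array 3 was the lowest of all arrays for this gene.

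LRP8 is the apolipoprotein E receptor 2, a lipoprotein receptor that also binds reelin. Its log2 level was 6.92, 6.44 and 6.87 in DFAT, 4.13, 3.99 and 4.38 in MA, 8.72, 8.31 and 8.29 in DFOG, and 13.13, 12.75 and 12.04 in GC. The order was GC, DFOG, DFAT and MA, with no overlap between any neighbours. SCARB1 is the HDL receptor SR-BI, through which steroid-making cells take up cholesteryl esters. Its log2 level was 8.30, 8.38 and 8.86 in DFAT, 8.50, 7.91 and 8.18 in MA, 9.03, 8.73 and 8.81 in DFOG, and 11.39, 10.47 and 10.66 in GC. GC stood above the other groups. DFOG and DFAT overlapped, as did DFAT and MA.

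**Figure D1:**
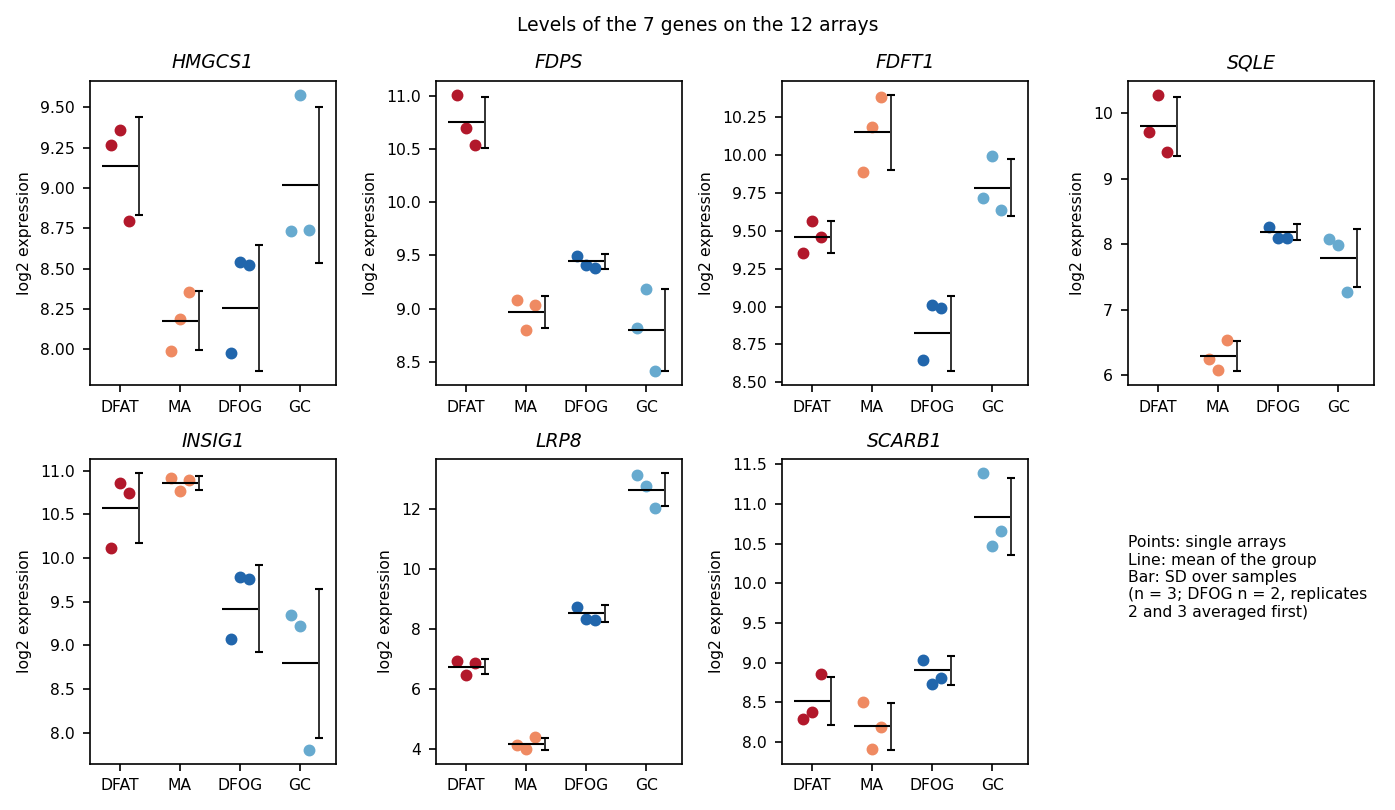
Log2 expression level (vertical axis) of each of the 7 genes on each array of DFAT, MA, DFOG and GC, 1 panel a gene; points are arrays, the horizontal line is the group mean and the bar the SD over samples (n = 3, and n = 2 for DFOG, whose arrays 2 and 3 were averaged). LRP8 separates all 4 groups, SQLE is highest in DFAT and lowest in MA, and SCARB1 is highest in GC.

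Adipocyte dedifferentiation went with higher levels of 3 of the 4 synthesis enzymes and of 1 receptor. SQLE rose by a log2 change of 3.51 ± 0.27 in DFAT relative to MA (SE, n = 3 each), an 11.4-fold difference (adjusted p = 2.12e-06, limma). FDPS rose by 1.78 ± 0.21 on the log2 scale, or 3.44-fold (adjusted p = 5.35e-05, limma), and HMGCS1 by 0.96 ± 0.26, or 1.95-fold (adjusted p = 0.0151, limma). FDFT1, which lies between FDPS and SQLE in the pathway, moved the other way and fell by 0.69 ± 0.18 on the log2 scale, or 1.62-fold (adjusted p = 0.011, limma). LRP8 rose by 2.57 ± 0.27 on the log2 scale, or 5.95-fold (adjusted p = 2.19e-05, limma). Since LRP8 lay near 4 in MA, where a level cannot be told from background in these data, this difference may be understated.

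INSIG1 and SCARB1 did not pass the test. The log2 change of INSIG1 was -0.29, with a 95% interval of -1.12 to 0.53, and that of SCARB1 was 0.31, with an interval of -0.26 to 0.89. These intervals, here and below, are not adjusted for the number of probe sets. The other INSIG1 probe set gave a log2 change of -0.32 and did not pass either. In all, 5 of the 7 genes changed, 4 upward and 1 downward, with a median log2 change of 0.96 over the 7. Over all probe sets 32.1% changed, 15.7% upward and 16.4% downward, with a median of -0.07. The HMGCS1 call was lost without MA array 1 (log2 change 0.87, adjusted p = 0.0545) or DFAT array 2 (0.85, adjusted p = 0.0575), and with the actin covariate (1.05, adjusted p = 0.12). The FDFT1 call was lost with the actin covariate (-0.77, adjusted p = 0.0928) and with arrays centred on spiked poly-A controls (-0.06, adjusted p = 0.884). Under that scaling HMGCS1 gave 1.59, SCARB1 passed at 0.95 (adjusted p = 0.0227, limma) and the split of calls was 5 up and 0 down.

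Granulosa cell dedifferentiation went with lower levels of both receptors and of FDFT1. LRP8 fell by a log2 change of 4.13 ± 0.30 in DFOG relative to GC (SE, n = 2 and n = 3), a 17.5-fold difference (adjusted p = 2.27e-06, limma). SCARB1 fell by 1.94 ± 0.29 on the log2 scale, or 3.83-fold (adjusted p = 0.000522, limma). FDFT1 fell by 0.96 ± 0.20 on the log2 scale, or 1.95-fold (adjusted p = 0.00428, limma). The other 3 synthesis enzymes did not pass the test. For HMGCS1 the log2 change was -0.76, with a 95% interval of -1.41 to -0.12 and an adjusted p of 0.0834 by limma. For FDPS it was 0.64, with an interval of 0.13 to 1.15 and an adjusted p of 0.0665 by limma, and for SQLE it was 0.40, with an interval of -0.26 to 1.05. INSIG1 gave a log2 change of 0.63, with an interval of -0.30 to 1.55.

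Thus 3 of the 7 genes changed, all downward, and the median log2 change over the 7 was -0.76. Over all probe sets 24.9% changed, 12.3% upward and 12.6% downward, with a median of -0.02. FDFT1 lost its call without DFOG array 1 (log2 change -0.79, adjusted p = 0.0634), and had a log2 change of -1.75 with poly-A centring. HMGCS1, at -1.55, passed under that centring (adjusted p = 0.00542). FDPS, SQLE and INSIG1 then changed sign, to -0.15, -0.39 and -0.16, and did not pass. FDPS passed without GC array 2 (0.83, adjusted p = 0.0256).

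**Figure D2:**
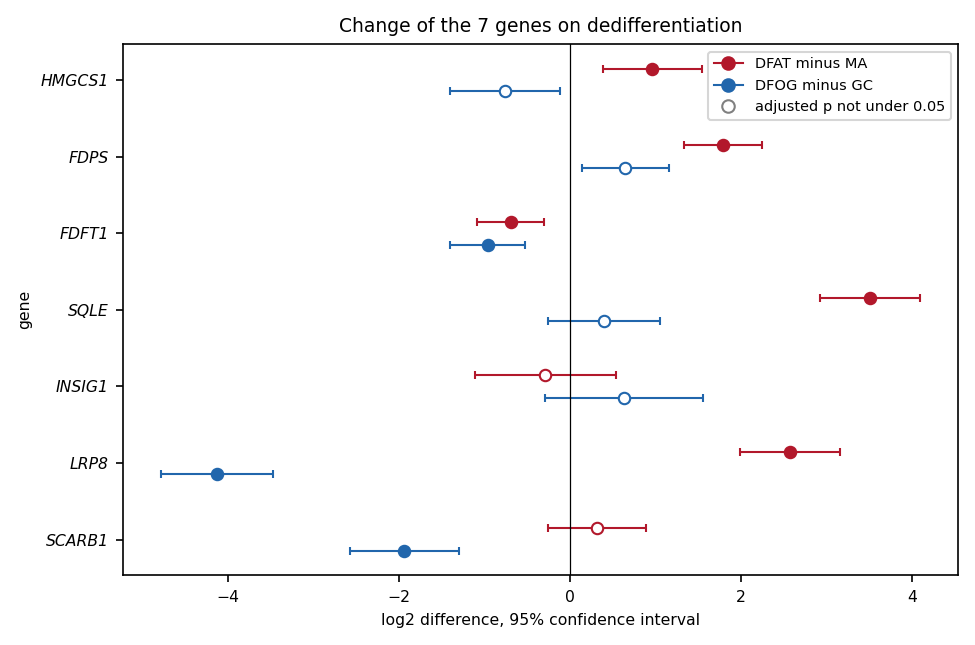
Log2 change of each of the 7 genes in DFAT relative to MA and in DFOG relative to GC, with 95% intervals from the limma fit, not adjusted for multiple testing; filled symbols passed an adjusted p of 0.05 and open ones did not. LRP8 rose by 2.57 in DFAT and fell by 4.13 in DFOG, while FDFT1 fell in both.

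The change on dedifferentiation differed between the lineages for 5 of the 7 genes when the difference itself was tested, as the change in DFAT relative to MA minus the change in DFOG relative to GC. All 5 differences were positive, that is, more upward in the fat lineage. The largest was that of LRP8, at 6.70 ± 0.40 on the log2 scale (adjusted p = 1.15e-06, limma), a value that contains the LRP8 level of MA, which cannot be told from background. It was 3.11 ± 0.40 for SQLE (adjusted p = 0.000214, limma), 2.25 ± 0.39 for SCARB1 (adjusted p = 0.00163), 1.72 ± 0.39 for HMGCS1 (adjusted p = 0.00804) and 1.14 ± 0.31 for FDPS (adjusted p = 0.0211). For FDFT1 the difference in log2 change was 0.27, with a 95% interval of -0.32 to 0.86, and for INSIG1 it was -0.92, with an interval of -2.16 to 0.32. Neither passed.

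The median difference over the 7 genes was 1.72. Over all probe sets 23.3% passed, 11.6% upward and 11.7% downward, with a median of -0.05. The FDPS difference no longer passed without MA array 2 (1.05, adjusted p = 0.0548), without DFOG array 1 (1.19, adjusted p = 0.057) or without DFOG arrays 2 and 3 (1.09, adjusted p = 0.0726). With poly-A centring the median of all probe sets was 1.37 and the log2 differences were 3.15 for HMGCS1, 2.56 for FDPS, 3.67 for SCARB1 and 1.69 for FDFT1, which then passed (adjusted p = 0.00883).

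The isolated cell types differed most in the receptors. LRP8 was lower in MA than in GC by a log2 difference of -8.47 ± 0.27 (SE, n = 3 each), or a measured 354-fold (adjusted p = 2.41e-09, limma), which may be understated because the MA level cannot be told from background. SCARB1 differed by -2.64 ± 0.26 on the log2 scale and was 6.24-fold lower in MA (adjusted p = 1.02e-05, limma). SQLE was 2.81-fold lower in MA, with a log2 difference of -1.49 ± 0.27 (adjusted p = 0.000877, limma), and HMGCS1 was lower by a log2 difference of -0.84 ± 0.26 (adjusted p = 0.0236, limma). INSIG1 alone of the 7 was higher in MA, by 2.07 ± 0.37 on the log2 scale or 4.20-fold (adjusted p = 0.000968, limma), and its other probe set gave 1.30 (adjusted p = 0.00643, limma).

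FDPS and FDFT1 did not pass between MA and GC, with log2 differences of 0.17 (95% interval -0.29 to 0.62) and 0.37 (-0.02 to 0.76). With poly-A centring both turned round and passed, at -1.18 for FDPS (adjusted p = 0.00234) and -0.98 for FDFT1 (adjusted p = 0.0116), and INSIG1 at 0.73 no longer passed (adjusted p = 0.0862). So 5 of the 7 genes differed, 1 higher and 4 lower in MA, against 0 higher and 6 lower with poly-A centring, with a median log2 difference of -0.84. Over all probe sets 40.5% differed, 20.7% higher and 19.7% lower in MA, with a median of 0.07. Under poly-A centring that median was -1.27, and the log2 differences were -2.19 for HMGCS1, -2.84 for SQLE and -3.99 for SCARB1. The HMGCS1 difference no longer passed without GC array 2 (-0.56, adjusted p = 0.0944), MA array 1 (-0.75, adjusted p = 0.0772) or MA array 2 (-0.85, adjusted p = 0.0595).

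Between the cultured cell types, FDPS, SQLE and LRP8 passed the test. FDPS was higher in DFAT than in DFOG by 1.31 ± 0.23 on the log2 scale (SE, n = 3 and n = 2), or 2.47-fold (adjusted p = 0.00435, limma). SQLE was higher in DFAT by 1.62 ± 0.30 on the log2 scale, or 3.07-fold (adjusted p = 0.00538, limma). LRP8 remained lower on the fat side, with a log2 difference of -1.77 ± 0.30, or 3.41-fold (adjusted p = 0.00297, limma). SQLE and LRP8 thus differed in both pairs of cell types. For SQLE the sign was opposite, being negative for MA relative to GC and positive for DFAT relative to DFOG.

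The other 4 genes did not pass between DFAT and DFOG. The log2 difference was 0.88 for HMGCS1 (95% interval 0.24 to 1.53), 0.64 for FDFT1 (0.20 to 1.07), 1.15 for INSIG1 (0.23 to 2.08) and -0.39 for SCARB1 (-1.03 to 0.25). So 3 of the 7 differed, 2 higher and 1 lower in DFAT, and the median log2 difference was 0.88. Over all probe sets 8.00% differed, 3.70% higher and 4.31% lower in DFAT, with a median of 0.01. SQLE no longer passed without DFOG arrays 2 and 3 (1.53, adjusted p = 0.0528), and INSIG1 passed without GC array 3 (1.15, adjusted p = 0.0271). GC is not part of this comparison, and the INSIG1 difference itself did not move. Only the estimate of spread, which all groups share, moved. The change between the lineages tested above is also the cultured difference minus the isolated one, since the comparisons share their samples, and is not a separate result.

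**Figure D3:**
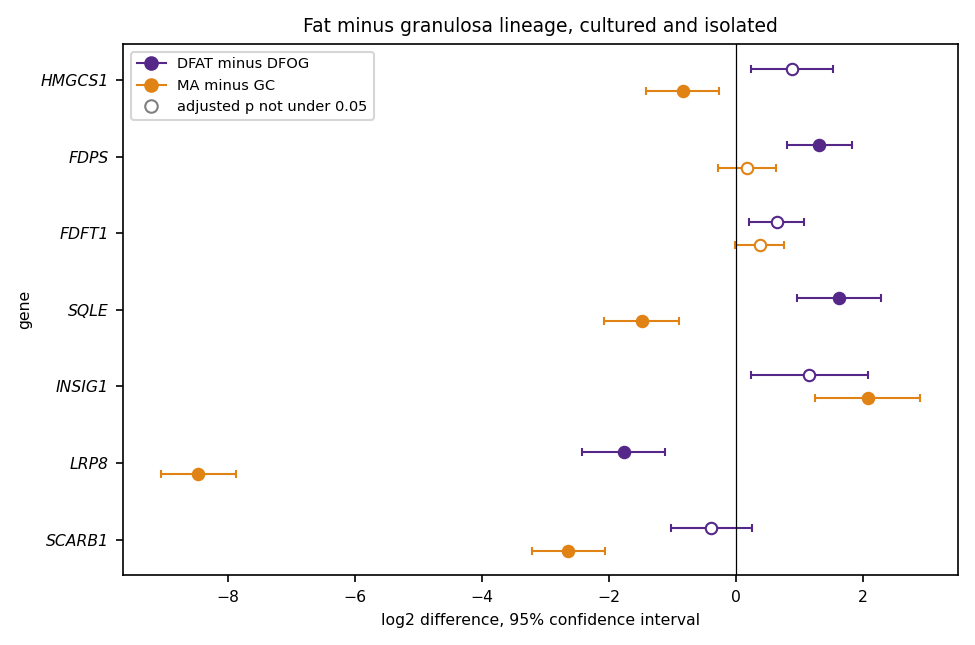
Log2 difference of each of the 7 genes between the cultured cell types (DFAT minus DFOG) and between the isolated ones (MA minus GC), with 95% intervals from the limma fit, not adjusted for multiple testing; filled symbols passed an adjusted p of 0.05 and open ones did not. The LRP8 difference was -1.77 in culture and -8.47 between the isolated cells, and that of SQLE was 1.62 in culture and -1.49 between the isolated cells.

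The remaining genes of the pathway were taken from lists of synthesis enzymes, SREBP control, lipoprotein uptake with lysosomal release, and cholesterol storage, efflux and steroid use, and 36 of them had a probe set. Of the 36, 17 changed in DFAT relative to MA, 5 upward and 12 downward, against 9 upward and 7 downward with poly-A centring. Over all probe sets, as above, 32.1% changed in that comparison, 15.7% upward and 16.4% downward. In DFOG relative to GC 14 changed, 7 upward and 7 downward, against 4 upward and 15 downward with poly-A centring. Without that centring 24.9% of all probe sets changed, 12.3% upward and 12.6% downward. The median log2 changes of the 36 were -0.27 and 0.04. These shares of all probe sets also apply to the counts by list below.

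Among 7 other synthesis enzymes, 2 rose in DFAT and none fell, and none changed in DFOG, with median log2 changes of -0.01 and 0.07. MSMO1, a sterol methyl oxidase, had log2 levels of 11.09, 11.35 and 10.86 in DFAT and 9.83, 9.87 and 10.01 in MA, a rise of 1.20 ± 0.19 (adjusted p = 0.000542, limma). In DFOG its log2 change was -0.55 (adjusted p = 0.09, limma), which passed without GC array 3 (-0.71, adjusted p = 0.0403), and the difference between the lineages, 1.74, passed (adjusted p = 0.00116, limma). Averaged over its probe sets, MSMO1 rose by 0.57 in DFAT and the difference between the lineages, 0.81, did not pass (adjusted p = 0.0623). A further MSMO1 probe set gave 0.58 in DFAT and a difference of 0.78, and neither passed. The last, at mean levels of 3.01 in DFAT and 3.08 in MA, gave -0.07 and -0.09. TM7SF2, a sterol reductase, rose by 1.39 ± 0.43 in DFAT (adjusted p = 0.0279, limma), although its DFAT arrays, at 6.47, 8.14 and 8.43, overlapped its MA arrays, at 6.70, 5.96 and 6.22. That call was lost without DFAT array 2 or 3 or MA array 2 or 3, at adjusted p = 0.0789 to 0.103.

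Of 5 other SREBP control genes, 1 rose in DFAT and 3 fell in DFOG, with median log2 changes of -0.20 and -0.73. SREBF2 had log2 levels of 8.32, 8.77 and 8.73 in DFAT and 7.26, 7.30 and 7.15 in MA, and rose by 1.37 ± 0.22 (adjusted p = 0.000582, limma). It had levels of 8.60, 8.33 and 8.31 in DFOG and 9.83, 9.62 and 9.00 in GC, and fell by 1.02 ± 0.25 on the log2 scale (adjusted p = 0.0102, limma). The difference between the lineages was 2.39 (adjusted p = 0.000357, limma). Averaged over its probe sets, SREBF2 passed in none of these. That average gave 0.73 in DFAT (adjusted p = 0.082, limma), -0.57 in DFOG (adjusted p = 0.257) and a difference of 1.29 (adjusted p = 0.0537). A further SREBF2 probe set passed in DFAT at 1.42 (adjusted p = 0.0336, limma). It did not pass in DFOG (-0.54, adjusted p = 0.53) or for the difference (1.96, adjusted p = 0.0609). The remaining SREBF2 probe sets, at mean levels of 4.22 and 5.12 in DFAT, gave -0.18 and 0.30 there and did not pass. Without DFOG arrays 2 and 3 the SREBF2 change in DFOG was -0.88.

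SCAP, the SREBP escort, fell by 0.86 on the log2 scale in DFOG (adjusted p = 0.0412, limma) and had a log2 change of 0.35 in DFAT, with a difference of 1.21 between the lineages (adjusted p = 0.0353, limma). INSIG2, the relative of INSIG1, fell by 0.73 on the log2 scale in DFOG (adjusted p = 0.0295, limma) and had a log2 change of -0.41 in DFAT. Both falls were lost without GC array 1 or without either DFOG sample, and without GC array 3 for SCAP and GC array 2 for INSIG2, at adjusted p = 0.0549 to 0.224. Without MA array 2 the SCAP fall was also lost (adjusted p = 0.0616). SREBF1, whose product drives chiefly fatty acid synthesis, had log2 changes of -0.36 in DFAT and -0.09 in DFOG, and neither passed.

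Of 12 other uptake and lysosomal genes, 2 rose and 6 fell in DFAT, and 3 rose and 3 fell in DFOG, with median log2 changes of -0.64 and -0.05. LIPA, the lysosomal acid lipase that frees cholesterol from lipoprotein esters, had log2 levels of 7.97, 8.27 and 7.76 in DFAT and 12.52, 12.44 and 12.33 in MA, and fell by 4.43 ± 0.16, or 21.6-fold (adjusted p = 1.24e-08, limma). In DFOG its log2 change was 0.14 (adjusted p = 0.656, limma). NPC1, which exports cholesterol from lysosomes, fell by 2.33 on the log2 scale in DFAT (adjusted p = 4.66e-06, limma) and by 1.84 in DFOG (adjusted p = 0.000104, limma). Its soluble partner NPC2 fell by 1.004 in DFAT (adjusted p = 0.000758, limma), a call lost with poly-A centring (-0.37, adjusted p = 0.347), and rose by 2.38 in DFOG (adjusted p = 4.6e-06, limma), where its other probe sets gave -0.42 and -0.05.

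MYLIP, the ubiquitin ligase that marks lipoprotein receptors, among them VLDLR and LRP8, for degradation, fell by 2.07 on the log2 scale in DFAT (adjusted p = 0.00116, limma) and by 3.54 in DFOG (adjusted p = 8.15e-05, limma). LRPAP1, a chaperone of such receptors, fell by 1.16 in DFAT (adjusted p = 0.00145, limma), a call lost with poly-A centring (-0.53, adjusted p = 0.214), and had a log2 change of -0.63 in DFOG (adjusted p = 0.0817, limma), which passed without MA array 1 (adjusted p = 0.0406). DAB2, an endocytic adaptor of lipoprotein receptors, had log2 levels of 11.004, 11.16 and 11.14 in DFOG and 4.86, 4.62 and 5.65 in GC. It rose by 6.04 ± 0.31, or 65.6-fold (adjusted p = 1.88e-07, limma). The other 2 DAB2 probe sets rose less in DFOG, by 3.92 (15.1-fold) and 5.23 (37.5-fold), and both passed. The DAB2 rise in DFAT was 1.03 (adjusted p = 0.0143, limma) and was lost without DFAT array 3 (adjusted p = 0.0564). It was not seen by the other 2 DAB2 probe sets, at -0.02 and 0.04. The fall of LIPA, NPC1 and NPC2 in DFAT stood beside the fall of 6 of 9 macrophage markers, 4 of 9 endothelial markers and 8 of 8 adipocyte markers, whose part in it was not tested.

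Of 12 genes of storage, efflux and steroid use, 6 fell and none rose in DFAT, and 4 rose and 1 fell in DFOG, with median log2 changes of -1.05 and 0.53. LIPE, the hormone-sensitive lipase, which is also one of the adipocyte markers, fell by 6.34 on the log2 scale in DFAT (adjusted p = 1.51e-08, limma). CYP27A1, a sterol hydroxylase, fell by 4.51 in DFAT (adjusted p = 6.23e-07, limma) and had a log2 change of 0.90 in DFOG (adjusted p = 0.0643, limma), which passed without DFOG array 1 (1.41, adjusted p = 0.0182) or DFAT array 1 (adjusted p = 0.0391). APOE, a ligand of LRP8, had log2 levels of 10.17, 10.47 and 11.41 in DFAT and 13.87, 14.13 and 13.87 in MA, and fell by 3.27 (adjusted p = 8.57e-05, limma). Its rise of 1.42 in DFOG (adjusted p = 0.0405, limma) depended on the DFOG sample, being 2.23 without DFOG array 1 and 0.61 (adjusted p = 0.392) without DFOG arrays 2 and 3. That call was also lost without any single GC or MA array and without DFAT array 2, at adjusted p = 0.052 to 0.0997, and with poly-A centring (0.63, adjusted p = 0.233). The other APOE probe set gave 0.14 in DFOG (adjusted p = 0.788, limma) and -1.28 in DFAT (adjusted p = 0.00133, limma). These falls in DFAT likewise stood beside those of the macrophage, endothelial and adipocyte markers.

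Of the steroid genes, HSD3B1 and CYP11A1 rose in DFOG, while STAR did not pass. HSD3B1, which converts pregnenolone to progesterone, had log2 levels of 11.48, 12.18 and 12.16 in DFOG and 6.25, 5.60 and 5.99 in GC, and rose by 5.88 ± 0.46, or 58.8-fold (adjusted p = 4.02e-06, limma). In DFAT it fell by 4.27 on the log2 scale (adjusted p = 1.2e-05, limma), with levels of 6.09, 5.01 and 5.86 in DFAT and 8.96, 10.36 and 10.44 in MA. CYP11A1, which cleaves the cholesterol side chain, rose by 2.31 in DFOG (adjusted p = 0.00398, limma), a call lost without DFOG array 1 (2.01, adjusted p = 0.0505). STAR, which delivers cholesterol to mitochondria, lay at 4.10 to 4.35 in DFOG and 4.38 to 5.39 in GC and did not pass (log2 change -0.54, adjusted p = 0.242, limma). APOA1, the main protein of HDL and so a ligand of SCARB1, fell by 1.58 on the log2 scale in DFOG (adjusted p = 0.00797, limma), a call lost without DFOG array 1 (-0.89, adjusted p = 0.104) and with the actin covariate (-0.92, adjusted p = 0.138). ABCA1, the cholesterol exporter that loads HDL, did not pass in DFAT (log2 change -1.27, adjusted p = 0.158, limma) and its DFAT arrays were spread over 6.35, 8.53 and 9.69. Without DFAT array 3 it passed at -2.03 (adjusted p = 0.0122). In DFOG the ABCA1 levels were 8.69, 8.50 and 8.54, against 7.89, 7.06 and 7.58 in GC. Its log2 change there, 1.10, did not pass (adjusted p = 0.325, limma). The same change passed with DFOG and GC fitted alone (adjusted p = 0.0281, limma) or without DFAT array 1 (adjusted p = 0.0375, limma).

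**Figure D4:**
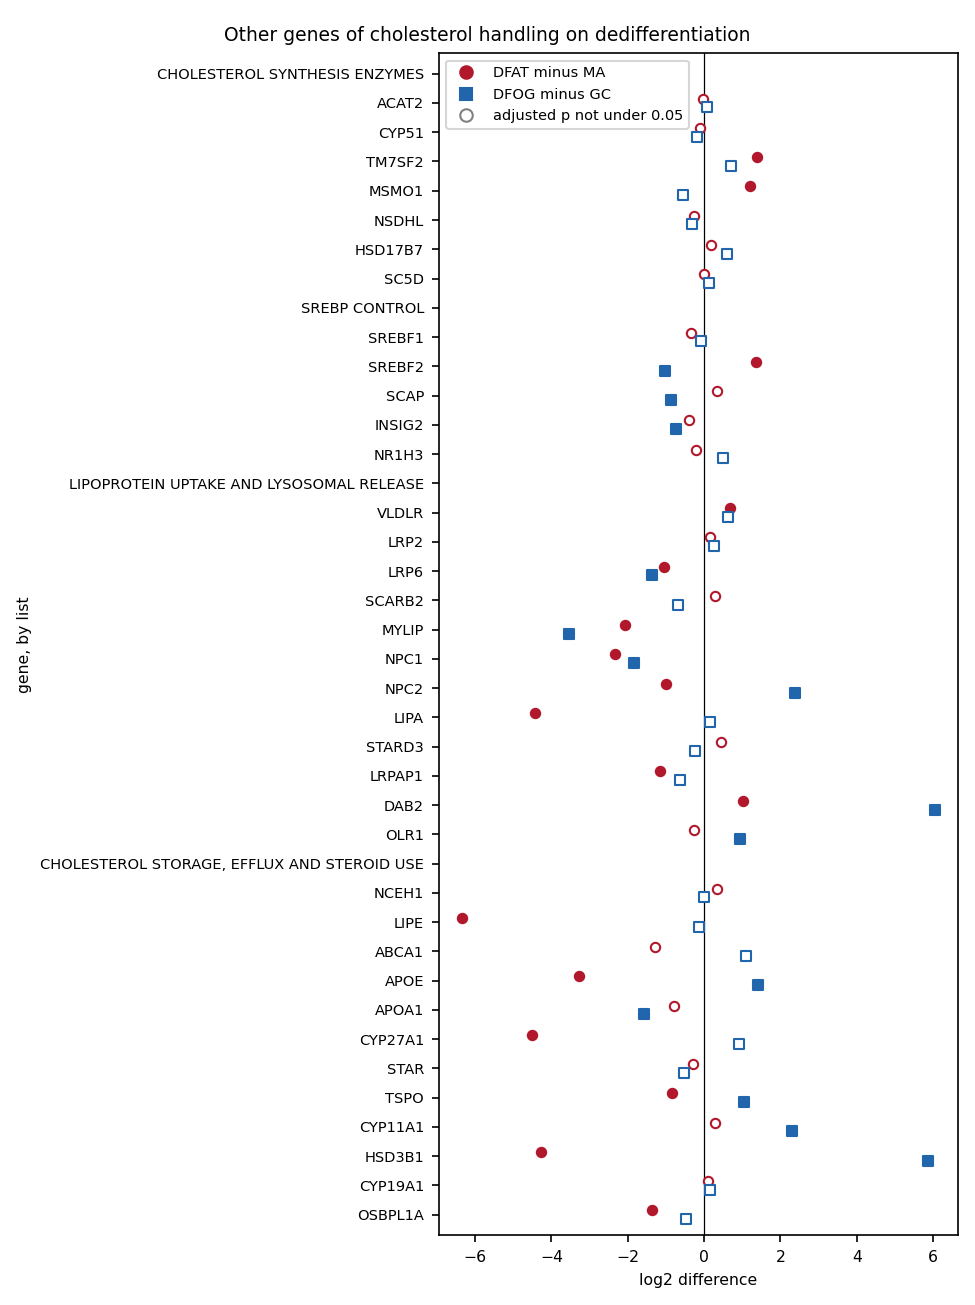
Log2 change of the 36 other pathway genes in DFAT relative to MA (circles) and in DFOG relative to GC (squares), grouped by list; filled symbols passed an adjusted p of 0.05 in limma and open ones did not. HSD3B1 lies at -4.27 and 5.88 and DAB2 at 1.03 and 6.04, while NPC1 and MYLIP are negative for both.

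Between the lineages, 14 of the 36 changes differed by the direct test, 3 more upward in the fat lineage and 11 more downward, against 20 and 7 with poly-A centring. Over all probe sets 23.3% passed without that centring, 11.6% upward and 11.7% downward. Without it, the synthesis and SREBP control lists held all 3 of the upward ones among the 36, namely MSMO1, SREBF2 and SCAP. The uptake and storage lists held all 11 of the downward ones. Relative to GC, MA had 16 of the 36 higher and 8 lower, against 8 and 19 with poly-A centring. Over all probe sets, without that centring, 20.7% were higher and 19.7% lower in MA. Relative to DFOG, DFAT had 7 of the 36 higher and 8 lower, beside 3.70% higher and 4.31% lower over all probe sets.

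The 7 genes did not share 1 pattern over the 11 samples. Pearson's r of log2 levels was 0.94 between LRP8 and SCARB1, 0.85 between FDPS and SQLE, and 0.67 between HMGCS1 and SQLE. It was -0.84 between INSIG1 and LRP8, -0.76 between INSIG1 and SCARB1, and -0.54 between FDFT1 and SQLE. These values describe the samples and largely reflect 4 group means, so none is given a test. Among 6560 named genes, the 3 nearest to each by the same measure were CCS, MSMO1 and MSANTD4 for HMGCS1 (r = 0.92, 0.92 and 0.87), and ACSL5, PPP1R14A and TTYH2 for FDPS (0.96 each). UBE2QL1, SS18L2 and GADD45G were nearest to FDFT1 (0.97, 0.96 and 0.95), and TMEM158, PIP5K1A and RPL37 to SQLE (0.98, 0.98 and 0.97). CD164, FGF18 and NR4A3 were nearest to INSIG1 (0.93, 0.92 and 0.92). ATXN10, ST3GAL4 and LHFPL2 were nearest to LRP8 (0.98 each), and FUT1, MYZAP and SPC25 to SCARB1 (0.99, 0.98 and 0.97). FGF18 lay at 3.46 to 4.71 on all arrays, SPC25 at 3.21 to 3.87 outside GC and PPP1R14A at 3.61 to 4.93 outside DFAT. Levels near 4 cannot be told from background in these data. MSMO1 was the only gene of the pathway lists among the 21 nearest genes.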

How the data were processed

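RNA of 12 samples was hybridised to the Affymetrix porcine genome array after labelling by amplification from the 3′ end, per the labels' protocols. The deposited log2 values are the output of RMA, robust multi-array averaging, which the submitters' processing notes name, with version and settings not given in the sources used here. RMA sets all arrays to 1 distribution, so changes are relative to the remaining RNA of each array, and the number of arrays limits the precision. Of 24123 probe sets, 124 controls were left out. Among those tested 10069 had 1 symbol, 198 several and 13732 none, from an annotation that can be old. Coordinates and sequences were not used here.

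A mean per group was fitted with limma 3.58.1 in R 4.3.3 over all 11 samples, with eBayes and Benjamini-Hochberg adjustment over 23999 probe sets. All groups thus share 1 estimate of the spread. Leaving out an array of a group outside a comparison can therefore move a call without moving the log2 change. An adjusted p under 0.05 counted as changed, and the fit was tested on simulated data. The figures used Python 3.11.15 with matplotlib 3.10.9. The members and the gene lists were chosen with earlier results of these data known. The pathway genes named were, per list and dedifferentiation, up to 4 with the largest change past the test, plus SREBF2, SREBF1, ABCA1 and STAR. Alternatives changed the scaling, the filter on low levels, the probe set rule, the samples fitted, the variance prior, array weights, an actin 3′ minus 5′ covariate and the replicate number as a block, and left out each array. Replicate numbers were not taken as pairs, since DFOG arrays 2 and 3 count as 1 sample and the deviations of same-numbered DFAT and MA arrays correlated at 0.10, 0.17 and 0.13, the first not above 0.1, although those of DFOG and GC arrays correlated at 0.60, 0.51 and 0.36.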

Additional observations from a re-analysis of the deposited data

Results flagged for a closer look

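The results below were singled out because the change in DFAT relative to MA and the change in DFOG relative to GC differed by the direct test of that difference, each with adjusted p under 0.05 in limma. Positive values mean a more upward change in the fat lineage. Of the 7 genes, LRP8 differed by 6.70 on the log2 scale, with changes of 2.57 in DFAT and -4.13 in DFOG. SQLE differed by 3.11, with 3.51 in DFAT and 0.40 in DFOG. SCARB1 differed by 2.25, with 0.31 in DFAT and -1.94 in DFOG. HMGCS1 differed by 1.72, with 0.96 in DFAT and -0.76 in DFOG. FDPS differed by 1.14, with 1.78 in DFAT and 0.64 in DFOG, and did not pass without MA array 2, DFOG array 1 or DFOG arrays 2 and 3.

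Among the other pathway genes, the difference was 2.39 for SREBF2, 1.74 for MSMO1 and 1.21 for SCAP, all of them in synthesis or its control. It was -10.14 for HSD3B1, -6.20 for LIPE, -5.42 for CYP27A1, -5.01 for DAB2, -4.69 for APOE, -4.57 for LIPA, -3.38 for NPC2 and -2.03 for CYP11A1. The SCAP difference no longer passed without GC array 1 or 3, MA array 1 or 2, DFAT array 2 or 3, or either DFOG sample, at adjusted p = 0.0525 to 0.133. That of CYP11A1 no longer passed without GC array 2, MA array 1 or 2, DFAT array 1 or 3, or either DFOG sample, at adjusted p = 0.0539 to 0.155, and was -0.60 with poly-A centring (adjusted p = 0.355). Averaged over probe sets, the SREBF2 and MSMO1 differences were 1.29 and 0.81 and did not pass, and that of NPC2 was -1.32. The other 2 NPC2 probe sets gave 0.04 and -0.61 and did not pass, and poly-A centring gave -1.96 for the one used. The other APOE probe set gave a smaller difference of -1.42, which passed (adjusted p = 0.0122, limma).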

How the results depend on the processing

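Over 35 results of the 7 genes under 23 other settings, 770 of 798 values kept their side of the threshold, 14 lost a call, 12 gained one and 2 reversed. A change of sign counted as reversed only where the main fit or the other setting called the gene. Uncalled changes of sign stand among the 770, such as SQLE in DFOG relative to GC, at 0.40 in the main fit and -0.39 with poly-A centring. Both reversals came with poly-A centring in MA relative to GC, FDPS at -1.18 and FDFT1 at -0.98, as did that of the SREBF1 difference between the lineages, at 1.16 against -0.26. That centring moved the median log2 change of all probe sets to 0.56 in DFAT and -0.81 in DFOG. It gave calls for 5 up and 0 down of the 7 genes in DFAT, 0 and 4 in DFOG, 27 of the 36 pathway genes between the lineages against 14, and 9 between DFAT and DFOG against 15. Fitting DFAT and DFOG alone gave 8. With the actin covariate 3 of the 7 passed in DFAT against 5. The causes were not tested. The percentages of all probe sets given above are those of the main fit, so counts under other settings, here and above, stand without such a share. The fit with a replicate block also counted DFOG arrays 2 and 3 as separate samples. It called 5 of the 7 in DFOG relative to GC, HMGCS1 (-0.67, adjusted p = 0.0421) and FDPS (0.63, adjusted p = 0.0267) being gained, and 5 between DFAT and DFOG, HMGCS1 (0.79, adjusted p = 0.0441) and FDFT1 (0.58, adjusted p = 0.0272) being gained, against 3 in each. Separate counting without the block called 4 in each. Further, 11 of 12 arrays correlated best with an array of their own number, a hint from the data only. Leaving out single arrays gave 8 to 17 pathway genes between DFAT and DFOG, the fewest without DFOG array 1, and 7 to 18 in DFOG relative to GC, the fewest without DFOG arrays 2 and 3, where fewer samples remain. With those arrays out, DFOG has 1 sample, assumed to vary like the other groups. The test between the lineages needs all groups, so no fit on fewer was run.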

Other observations

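A pair of further receptors, VLDLR and LRP6, was chosen after their values were seen. VLDLR, the very-low-density lipoprotein receptor, had log2 levels of 11.49, 11.99 and 11.57 in DFAT and 10.98, 10.95 and 11.06 in MA, a rise of 0.68 (adjusted p = 0.0285, limma), and of 10.86, 10.63 and 10.55 in DFOG and 10.47, 10.12 and 9.69 in GC (change 0.63, adjusted p = 0.0756, limma). Its other probe set gave 0.16 and did not pass in DFAT, and the call was lost without any single MA array or DFAT array 2, at adjusted p = 0.0581 to 0.109, and with the actin covariate (0.24, adjusted p = 0.651). LRP6, a Wnt co-receptor related to LRP8, fell by 1.04 on the log2 scale in DFAT (adjusted p = 0.0182, limma) and by 1.37 in DFOG (adjusted p = 0.00996, limma). Its other probe set gave -0.83 in DFAT and -1.26 in DFOG and passed in neither. Averaged over its probe sets, LRP6 did not pass in DFAT (-0.93, adjusted p = 0.0907, limma). The fall in DFAT was lost without MA array 1 or 2 or DFAT array 1, at adjusted p = 0.0541 to 0.0686, and with poly-A centring (-0.41, adjusted p = 0.336), and that in DFOG without DFOG arrays 2 and 3 (adjusted p = 0.099).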
